A study of Homo sapiens with 24 samples.

Results

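ZNF503 targeting was examined in human embryonic stem cell cultures taken through a ventricular heart muscle protocol, in 3 libraries labelled ZNF503 (VM_ZNF503) and 3 control libraries labelled TRAC (VM_TRAC), which are 6 of the 24 bulk RNA sequencing libraries of the study. The members were chosen by these labels, and libraries with the same replicate number, 1, 2 or 3, were taken as pairs. All cells were of the HES3 line with a GFP reporter at NKX2-5 and an mCherry reporter at NR2F2, so the controls carry both reporters too. Knockouts of ZNF503, LHX2 or ZNF711 were made with CRISPR-Cas9. Targeting of TRAC, a T cell receptor gene, served as control. The cells were differentiated as embryoid bodies, which are floating cell aggregates, under a Wnt-modulating protocol for up to 14 days. The ventricular cultures received no retinoic acid, whereas the atrial cultures (AM) received it at day 4. The labels do not spell out AM and VM, which are read here as atrial and ventricular. Nor do they say whether each targeted line was 1 clone or a pool, whether replicates were separate cultures, or on which day cells were collected, so the p-values measure the spread between these libraries, which may be technical.

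ZNF503 and its close relative ZNF703 form the vertebrate NET family of zinc finger proteins. They act as corepressors in the nucleus, working with Groucho (TLE) proteins and histone deacetylases. ZNF503 is known for roles in the closure of the optic fissure and in hindbrain and striatal development, and ZNF703 as an oncogene of luminal breast cancer.

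ZNF503 lies on the minus strand of chromosome 10 (GRCh38.p14, chr10:75279725-75401916, RefSeq). The antisense gene ZNF503-AS1 lies within this span, and ZNF503-AS2 (chr10:75401528-75408982) overlaps its 5′ end by 389 bases. The 250 bases before the RefSeq start of ZNF503 (the one farthest upstream of 2) are shown because it is the targeted gene. The same window is shown for FLT1, PLVAP and CD34, endothelial genes whose levels lay below the control in all 3 pairs; CDH5 is named only. The windows are chr10:75401917-75402166 for ZNF503, chr13:28495129-28495378 for FLT1, chr19:17377343-17377592 for PLVAP and chr1:207911126-207911375 for CD34, each read 5′ to 3′ on the minus strand. Capitals mark the GC box GGGCGG in ZNF503, and the ETS cores AGGAAG and CGGAAG, searched on both strands, in the other windows. ETS factors switch on many endothelial genes.
ZNF503: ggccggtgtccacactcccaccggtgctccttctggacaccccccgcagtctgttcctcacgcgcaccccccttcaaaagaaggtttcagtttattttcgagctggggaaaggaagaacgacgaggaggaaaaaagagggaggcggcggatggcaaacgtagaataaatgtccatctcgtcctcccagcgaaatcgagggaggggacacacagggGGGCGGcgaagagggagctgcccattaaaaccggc
FLT1: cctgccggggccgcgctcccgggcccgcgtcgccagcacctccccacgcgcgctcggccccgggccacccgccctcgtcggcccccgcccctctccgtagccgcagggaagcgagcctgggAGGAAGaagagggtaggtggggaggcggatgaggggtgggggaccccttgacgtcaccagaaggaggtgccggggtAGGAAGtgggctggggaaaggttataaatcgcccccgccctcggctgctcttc
PLVAP: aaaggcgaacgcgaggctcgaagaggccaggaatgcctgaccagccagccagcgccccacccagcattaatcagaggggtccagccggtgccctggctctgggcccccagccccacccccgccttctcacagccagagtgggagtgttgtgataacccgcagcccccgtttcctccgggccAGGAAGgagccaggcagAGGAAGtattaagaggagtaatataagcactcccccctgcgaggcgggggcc
CD34: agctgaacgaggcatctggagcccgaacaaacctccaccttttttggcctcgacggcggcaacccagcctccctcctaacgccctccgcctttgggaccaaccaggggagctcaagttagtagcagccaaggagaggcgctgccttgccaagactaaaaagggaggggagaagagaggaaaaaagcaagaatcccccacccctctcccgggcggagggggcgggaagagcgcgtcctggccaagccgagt
The window of ZNF503 held 1 GC box and no CCAAT box, motifs that 42.6% and 32% of the 35116 RefSeq promoter windows of this length held. Those of FLT1 and PLVAP held 2 ETS cores each and that of CD34 held none, against 40.8% of all windows with at least 1. The window of ZNF503 held 1 ETS core too, which is not marked. Those of FLT1, PLVAP and CD34 held 3, 0 and 2 GC boxes, also not marked. A match is a run of letters and does not show binding.

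The 6 libraries held 4194908 to 7438010 counts, and 23174 to 25454 genes had a count in each. Levels are given in CPM, a gene's count per 1000000 counts of its library after scaling by the trimmed mean of M values, and 3 counts correspond to 0.447 to 0.704 CPM. Mitochondrial genes held 2.90% to 3.72% of the counts. Replicate 3 stood apart in both groups. On the first principal component of the 12 ventricular libraries (56.2% of the variance of 1000 genes), replicates 1 and 2 lay at -26.7 and -25.0 in VM_ZNF503 and at -26.7 and -23.3 in VM_TRAC, while replicate 3 lay at 26.9 and 35.7. Markers of liver-like and yolk sac endoderm moved with that split. The summed level of 20 such genes was 27430 and 40540 CPM in replicate 3 of VM_ZNF503 and VM_TRAC, against 4450 to 6186 CPM in the other 4 libraries. The 30 heart muscle genes moved the other way, with 26090 and 22390 CPM in replicate 3 against 47350 to 51910 CPM in the others. Results that rest on replicate 3 are given with and without it.

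**Figure D1:**
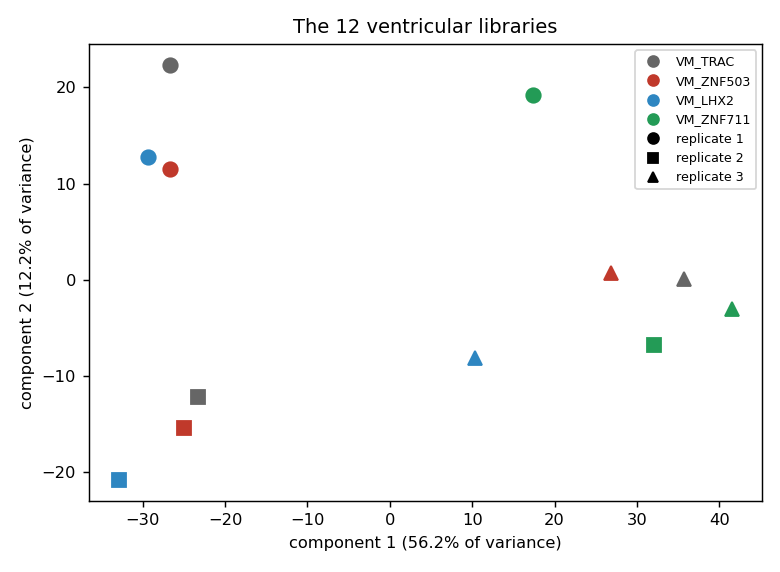
First and second principal components of the 12 ventricular libraries (axes in component units, with 56.2% and 12.2% of the variance), colored by labelled genotype and shaped by replicate number. VM_ZNF503 and VM_TRAC libraries of the same number lie beside each other, and replicate 3 of both lies with the VM_ZNF711 libraries on the right.

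The cells carried the heart muscle markers that the label cardiomyocyte implies, with TNNT2, the cardiac troponin T gene, at 199 to 654 CPM and the transcription factor gene NKX2-5 at 123 to 260 CPM. The ventricular light chain gene MYL2 was close to the floor, at 0.615 to 6.33 CPM. The ventricular transcription factor gene IRX4 was at 46.6 to 178 CPM. NR2F2, a gene of atrial identity, was at 18.9 to 49.2 CPM.

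The RNA of the targeted gene itself lay above the control in every library labelled ZNF503. Its level was 45.3, 42.7 and 19.1 CPM in replicates 1, 2 and 3 of VM_ZNF503 and 8.82, 14.6 and 16.2 CPM in VM_TRAC. Counts were 193, 209 and 89 against 43, 71 and 109. The 2 groups did not overlap, and replicate 3 of VM_ZNF503 lay close to the highest control. The means were 35.7 CPM ± 14.4 (SD, n = 3) and 13.2 CPM ± 3.91 (SD, n = 3), a 2.70-fold ratio. The paired differences in log2 CPM were 2.31, 1.52 and 0.23 for replicates 1, 2 and 3. In edgeR's quasi-likelihood test over all 24 libraries the fitted log2 fold change was 1.36 (SE 0.29, unadjusted p 0.000433), and the Benjamini-Hochberg adjusted p over all genes was 1. The gene was called when only the 6 libraries compared were fitted (adjusted p 0.00135) and when replicate 3 was left out of VM_ZNF503 (log2 fold change 1.73, adjusted p 0.00139), of VM_TRAC (1.78, 0.0450) or of all ventricular groups (1.92, 1.03e-05). It was not called with the 12 ventricular libraries alone (adjusted p 0.890), with DESeq2 (0.0794) or without the replicate block. Nor was it called without replicate 1 or 2 of VM_ZNF503, of VM_TRAC or of all ventricular groups. Without replicate 1 of all ventricular groups its log2 fold change was 0.917. A count over the whole gene does not read a small edit, so these values say nothing of the protein.

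No other ventricular group had ZNF503 levels as high as those of replicates 1 and 2. VM_LHX2 libraries had 8.65, 16.8 and 10.2 CPM, and VM_ZNF711 libraries had 16.8, 13.2 and 12.5 CPM. All 9 of the other ventricular libraries lay below the lowest library labelled ZNF503. Against the mean of VM_LHX2 and VM_ZNF711, a comparison without the TRAC libraries, ZNF503 was called higher, with a log2 fold change of 1.45 (SE 0.25, adjusted p 0.0147). That call was lost without replicate 1 or 2 of VM_ZNF503 (adjusted p 0.128 and 0.214), without replicate 2 of VM_ZNF711 (0.0579) and without the replicate block (0.132).

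ZNF703, the paralog, which lies on chromosome 8 (GRCh38.p14, 37695782 to 37700019), had the same direction and a smaller difference. Its level was 34.3, 37.0 and 33.3 CPM in VM_ZNF503 and 18.1, 25.6 and 30.4 CPM in VM_TRAC. The groups did not overlap, and the 3 libraries labelled ZNF503 varied less (SD 1.90 CPM) than the controls (SD 6.22 CPM). The fitted log2 fold change was 0.50 (SE 0.15, unadjusted p 0.00205, adjusted p 1). Paired differences were 0.91, 0.53 and 0.13, again smallest in replicate 3.

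The antisense genes were too low to follow. ZNF503-AS2 had 11, 28 and 5 counts in VM_ZNF503 and 11, 13 and 16 counts in VM_TRAC, with a log2 fold change of 0.17 (SE 0.47). ZNF503-AS1 had 0 to 2 counts per library and was not tested. The strandedness of the counting is not given in the sources used here, so reads of ZNF503 and of the antisense genes that overlap it cannot be told apart. The genes targeted in the other lines were not different here beyond the spread. ZNF711, which encodes a zinc finger protein that recruits a histone demethylase, had a log2 fold change of -0.27 (SE 0.17, unadjusted p 0.113). LHX2, a LIM homeobox gene, had 9 to 27 counts per library and a log2 fold change of -0.20 (SE 0.60).

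**Figure D2:**
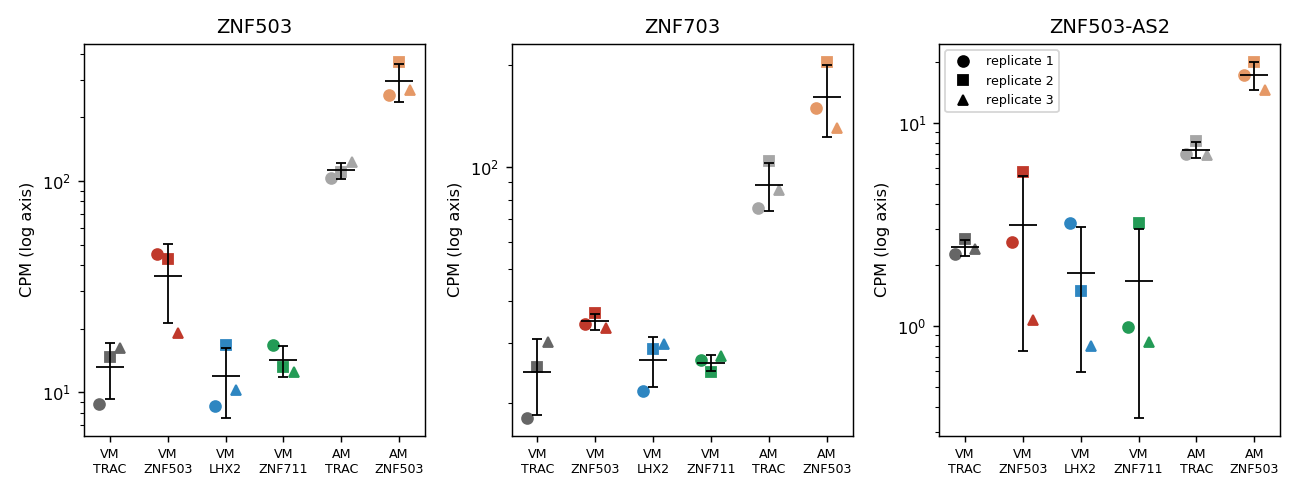
Levels of ZNF503, ZNF703 and ZNF503-AS2 in CPM (log axes) by group, with 1 point per library shaped by replicate number and bars for the mean ± SD of 3 libraries. ZNF503 in the ventricular protocol reached 45.3, 42.7 and 19.1 CPM in the libraries labelled ZNF503, above the 8.65 to 16.8 CPM of the other 9 ventricular libraries, and the atrial libraries lie higher still.

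Groucho and histone deacetylase genes, the known partners of ZNF503, showed little difference. Of 13 tested, none had an unadjusted p below 0.05, and their median log2 fold change was 0.03, against -0.01 for all genes. TLE5 had the lowest p of them, at 0.0967.

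Across all genes the difference between VM_ZNF503 and VM_TRAC was small beside the spread. Of 17724 genes tested, 0 (0%) passed an adjusted p of 0.05, and the lowest adjusted p was 0.711. At an unadjusted p below 0.05 there were 795 genes (4.49%), of which 391 (2.21%) were higher and 404 (2.28%) lower in VM_ZNF503. DESeq2, with the same design, gave 0 calls and 784 genes at an unadjusted p below 0.05. The quartiles of the log2 fold change over all genes were -0.18 and 0.15. All 3 pairs were higher for 2196 genes (12.4%) and lower for 2502 genes (14.1%). The groups did not overlap for 359 genes on the higher side (2.03%) and 407 on the lower side (2.3%). With 6 libraries fitted alone, 25 genes were called, 14 higher and 11 lower.

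**Figure D3:**
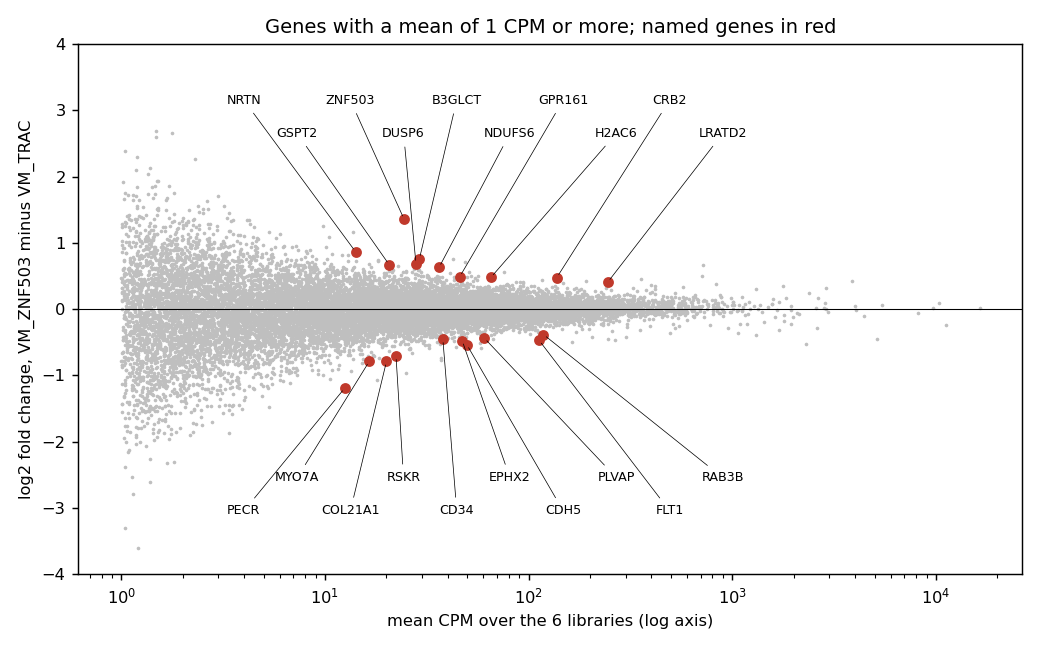
Fitted log2 fold change of VM_ZNF503 against VM_TRAC (vertical) by mean CPM over the 6 libraries (horizontal, log axis) for genes with a mean of 1 CPM or more, with the named genes in red. No gene shown was called, and ZNF503 at 1.36 lies above the other genes of similar level.

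The 10 genes with the lowest unadjusted p on each side, among those with all 3 pairs in 1 direction and a minimum of 50 counts per library on the higher side, are given as values, since none was called. On the higher side they included, beside ZNF503, 2 signalling genes and a polarity gene. DUSP6, a phosphatase that shuts off ERK, had 30.3, 26.6 and 46.2 CPM against 14.6, 19.6 and 30.8 CPM. Its groups overlapped, replicate 3 was the highest in both, and each library labelled ZNF503 exceeded the control of its number. Its log2 fold change was 0.68 (SE 0.16, adjusted p 0.711). Against VM_TRAC, DUSP6 also had 0.69 in VM_LHX2 and 0.39 in VM_ZNF711, so a higher level was not particular to VM_ZNF503.

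CRB2, a Crumbs protein of the apical membrane, had 187, 178 and 115 CPM against 103, 154 and 89.8 CPM. Its log2 fold change was 0.48 (SE 0.11, adjusted p 0.711), beside 0.19 in VM_LHX2 and -0.27 in VM_ZNF711 against VM_TRAC. The pair of replicate 1 had the largest of its 3 differences. NRTN, which encodes the growth factor neurturin, had 18.8, 21.0 and 14.2 CPM against 5.74, 10.9 and 14.2 CPM, so that the pair of replicate 3 was level.

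GPR161, a receptor of the primary cilium that restrains hedgehog signalling, had 60.3, 46.0 and 54.8 CPM against 36.5, 35.3 and 42.6 CPM. The groups did not overlap, and the log2 fold change was 0.49 (SE 0.14). The others on the higher side were NDUFS6 (a complex I subunit gene, 0.63), H2AC6 (a histone H2A gene, 0.48), GSPT2 (a translation termination factor gene, 0.67), LRATD2 (0.41) and B3GLCT (a glucosyltransferase gene, 0.76), all as log2 fold changes. GSPT2, LRATD2 and NRTN had groups that did not overlap. Some of these genes also lay above VM_TRAC in the other targeted lines. In VM_LHX2 and VM_ZNF711, GPR161 had 0.45 and 0.32, GSPT2 0.43 and 0.49, and LRATD2 0.32 and 0.42. NDUFS6 had 0.11 and -0.02 there, B3GLCT 0.46 and -0.52, H2AC6 0.045 and 0.46, and NRTN 0.45 and 0.21. H2AC6 and LRATD2 were called higher in VM_ZNF711 (adjusted p 0.0246 and 0.0171).

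On the lower side 4 of the 10 genes mark endothelium. FLT1, a receptor for vascular endothelial growth factor, had 96.0, 84.2 and 102 CPM in VM_ZNF503 and 165, 117 and 113 CPM in VM_TRAC. Its groups did not overlap, and its log2 fold change was -0.47 (SE 0.11, adjusted p 0.711). The paired differences were -0.78, -0.47 and -0.15.

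PLVAP, which forms the diaphragms of endothelial pores, had 51.6, 48.8 and 53.9 CPM against 70.2, 61.7 and 77.8 CPM. CD34, a surface mucin of endothelial and blood progenitors, had 33.3, 29.0 and 33.7 CPM against 47.2, 39.4 and 45.0 CPM. For both genes every library labelled ZNF503 lay below every control, and the log2 fold changes were -0.44 for PLVAP (SE 0.12) and -0.45 for CD34 (SE 0.14).

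CDH5, the cadherin of endothelial junctions, had 54.0, 39.0 and 29.7 CPM against 72.6, 46.6 and 56.5 CPM, a log2 fold change of -0.54 (SE 0.15). Its groups overlapped. PECR, a peroxisomal enoyl-CoA reductase, had the largest difference on the lower side, with 6.10, 5.31 and 11.8 CPM against 15.8, 13.4 and 22.6 CPM and a log2 fold change of -1.19 (SE 0.29). The others were COL21A1 (a collagen gene, -0.79), MYO7A (an unconventional myosin gene, -0.79), EPHX2 (a soluble epoxide hydrolase gene, -0.48), RAB3B (a GTPase gene of regulated secretion, -0.38) and RSKR (-0.71), again as log2 fold changes. Of CDH5 and these 6, only PECR had groups that did not overlap. COL21A1 also lay below VM_TRAC in VM_LHX2 (-0.91) and in VM_ZNF711 (-1.07, adjusted p 0.00251), while PECR had -0.79 and 0.11 there.

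**Figure D4:**
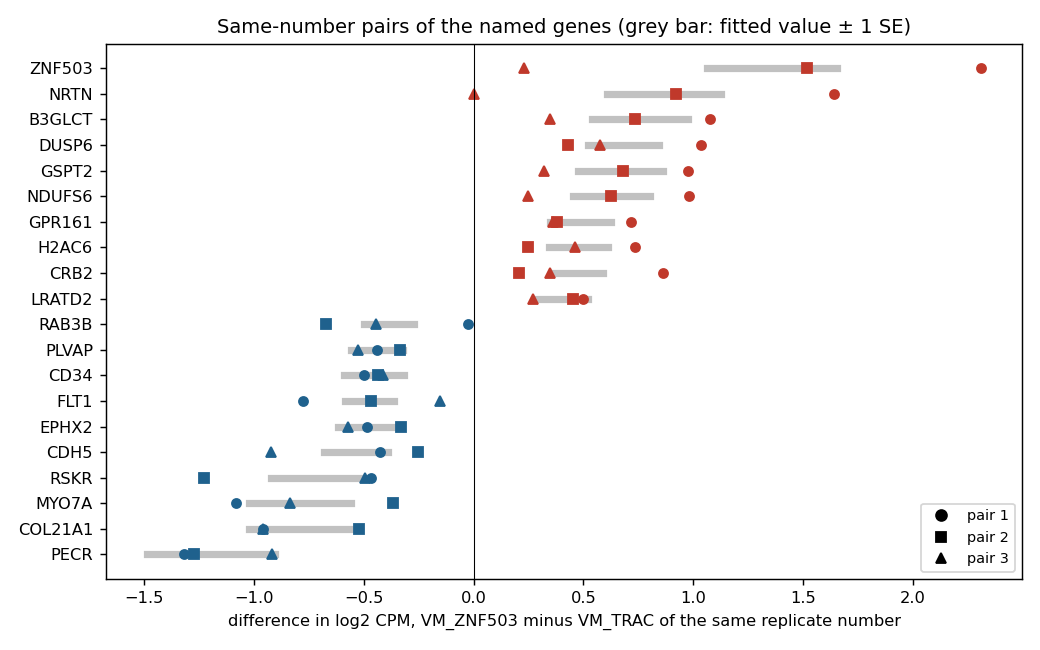
Difference in log2 CPM between the VM_ZNF503 and VM_TRAC libraries of the same replicate number for the 20 named genes, with 1 symbol per pair and a grey bar for the fitted value ± 1 SE. ZNF503 has the widest spread of pairs, from 2.31 in replicate 1 to 0.23 in replicate 3, while the 3 pairs of CD34 lie between -0.50 and -0.41.

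The endothelial and endocardial genes, listed by known markers, had fitted values below the control. All 16 tested had a log2 fold change below 0, against 51.4% of all genes, with a median of -0.31. Of them 6 had an unadjusted p below 0.05, all lower (2.28% of all genes), 8 were lower in all 3 pairs (14.1% of all genes), and 2 had groups that did not overlap (2.3% of all genes). None was called, and CD34 is not on this list. Beside FLT1, PLVAP and CDH5 the 6 were PECAM1, TEK and ESAM. PECAM1, an adhesion molecule of endothelial junctions, had a log2 fold change of -0.38 (SE 0.16). TEK, the angiopoietin receptor, had -0.38 (SE 0.17), and ESAM, a further adhesion molecule, -0.51 (SE 0.22).

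The summed level of the 16 genes was 597, 514 and 625 CPM in VM_ZNF503 and 776, 649 and 716 CPM in VM_TRAC, with no overlap. VM_LHX2 libraries had 739, 639 and 624 CPM and VM_ZNF711 libraries 675, 616 and 670 CPM, between and across both groups. Without replicate 3 of the ventricular groups 15 of the 16 stayed below 0, with a median of -0.32. In bulk samples, fewer cells of a type and less RNA per cell cannot be told apart.

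Genes of ventricular identity had fitted values above the control. All 13 had a log2 fold change above 0, against 48.5% of all genes, with a median of 0.28, and 3 had an unadjusted p below 0.05 (2.21% of all genes on the higher side). These were KCNJ2, a gene of the inward rectifier potassium channel, with 0.52 (SE 0.22), the homeobox gene IRX3 with 0.34 (SE 0.15) and MYL2 with 1.34 (SE 0.65). MYL2 rested on 27, 28 and 24 counts against 3, 13 and 30. Replicate 1 bears on that count. It was 0 without replicate 1 of VM_ZNF503, of VM_TRAC or of all ventricular groups, with medians of 0.19, 0.23 and 0.19, and also without the replicate block. Without replicate 2 of VM_ZNF503 it was 1, with 12 of 13 above 0, and without replicate 3 of VM_ZNF503 it was 5, with a median of 0.41. Without replicate 3 of all ventricular groups it was 4, with a median of 0.31. With no library left out, the list median was 0.13 in VM_LHX2 and -0.30 in VM_ZNF711 against VM_TRAC, and -0.05 in the atrial comparison. The summed level was 1717, 2179 and 1657 CPM in VM_ZNF503 and 1257, 1561 and 1367 CPM in VM_TRAC. VM_LHX2 libraries had 1529, 1742 and 1610 CPM, and VM_ZNF711 libraries 1080, 1361 and 1121 CPM.

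MYH7, the slow myosin heavy chain gene of ventricular muscle, had 824, 1034 and 795 CPM against 578, 535 and 545 CPM. The groups were far apart, and the means were 885 CPM ± 130 (SD, n = 3) and 553 CPM ± 22.1 (SD, n = 3), a 1.60-fold ratio. The log2 fold change was 0.67 in each fit, but its SE was 0.33 with all 24 libraries (unadjusted p 0.0636) and 0.09 with the 6 compared, where MYH7 was called (adjusted p 2.79e-08). The fit of the 6 libraries rests on 3 pairs, and its SEs were also small for genes that varied widely between replicates. AFP and APOB had SEs of 0.099 and 0.095 there, against 0.345 and 0.381 with all 24 libraries. MYH7 was also called with the 12 ventricular libraries alone (adjusted p 0.00888). The atrial libraries, which enter only the 24-library fit, held 15.2 to 109 CPM of MYH7. VM_LHX2 libraries had 722, 761 and 715 CPM, close to the lower VM_ZNF503 values, and the log2 difference between VM_ZNF503 and VM_LHX2 was 0.26 (SE 0.32, unadjusted p 0.434).

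Among 30 genes of all heart muscle cells, 27 had a log2 fold change above 0, against 48.5% of all genes. Only 1 (3.33%), MYL4, had an unadjusted p below 0.05, a share near the 2.21% of all genes on the higher side. The median was 0.17. For the same list it was 0.18 in VM_LHX2 and -0.61 in VM_ZNF711 against VM_TRAC. Leaving out replicate 2 of VM_ZNF503 left 22 of the 30 above 0, and leaving out its replicate 1 left 26. MYL4, the embryonic and atrial light chain gene, had 624, 825 and 450 CPM against 470, 726 and 332 CPM and a log2 fold change of 0.34 (SE 0.12). TNNT2 was nearly the same in each pair, at 654, 361 and 199 CPM against 611, 356 and 203 CPM. Of 21 cardiac transcription factor genes, 17 lay above 0, against 48.5% of all genes. NKX2-5 alone (4.76%) had an unadjusted p below 0.05, against 2.21% of all genes on the higher side. NKX2-5 had 225, 260 and 161 CPM against 123, 255 and 124 CPM and a log2 fold change of 0.42 (SE 0.17). Without replicate 1 of VM_ZNF503 13 of the 21 lay above 0, with a median of 0.038 in place of 0.082 and none at an unadjusted p below 0.05. Without replicate 1 of all ventricular groups 12 did, with a median of 0.024. The median was higher without replicate 2 or 3 of VM_ZNF503, or replicate 1 or 2 of VM_TRAC (0.116, 0.143, 0.140 and 0.167). NKX2-5 also carries the GFP reporter.

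Most atrial genes had fitted values above the control, while pacemaker genes had no common direction. Of 13 atrial genes 9 lay above 0 with a median of 0.18, which ran from -0.03 to 0.30 with libraries left out. Of these 13, 5 were higher in all 3 pairs (12.4% of all genes) and 0 were lower (14.1% of all genes). Of 12 pacemaker genes 7 lay above 0, with a median of 0.03. HCN4, the pacemaker channel gene, had a log2 fold change of 0.30 (SE 0.14) and CACNA1G, a T-type calcium channel gene, -0.40 (SE 0.18). Genes of the epicardium (15, median -0.01), fibroblasts and mesenchyme (16, median 0.04) and smooth muscle (10, median 0.12) were split between both sides, and FBLN2, which encodes an extracellular matrix protein of mesenchyme, was the only 1 of these 41 with an unadjusted p below 0.05 (log2 fold change -0.41, SE 0.14). Of the 13 blood cell genes 12 were too low to be tested.

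Most endoderm genes had fitted values below the control, with wide errors. The median of the secretory genes changed sign without replicate 3 of VM_TRAC alone. In pairs 1, 2 and 3 their median differences were -0.28, -0.12 and -0.53, and those of endoderm transcription factor genes -0.23, -0.39 and -0.49. Of 20 secretory genes of liver and yolk sac, 19 had a log2 fold change below 0 and 11 were lower in all 3 pairs (14.1% of all genes), with a median of -0.30, and none had an unadjusted p below 0.05. AFP, the alpha-fetoprotein gene, had 1520, 1522 and 9500 CPM against 2019, 1831 and 14343 CPM. APOB, which encodes the main protein of low density lipoprotein, had 1135, 630 and 3776 CPM against 1479, 901 and 5914 CPM. In both genes the gap between replicate 3 and the others was far larger than that between the groups. Without replicate 3 of VM_TRAC alone the direction turned, with 16 of the 20 genes above 0 and a median of 0.085. Without replicate 3 of VM_ZNF503 alone all 20 lay below 0, with a median of -0.53. Leaving out replicate 3 of all ventricular groups left 14 of the 20 below 0 and a median of -0.19. The median was -0.52 without replicate 2 of VM_TRAC and -0.16 without replicate 2 of VM_ZNF503.

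Of 12 endoderm transcription factor genes 9 lay below 0, with a median of -0.38. This median was -0.057, with 7 below 0 and 5 above, without replicate 3 of VM_TRAC. It was -0.59 without replicate 2 of VM_TRAC and -0.58 without replicate 3 of VM_ZNF503. Without replicate 3 of all ventricular groups it was -0.36, with 8 of the 12 below 0. HHEX, a homeobox gene of early endoderm that endothelium also expresses, had -0.76 (SE 0.31, unadjusted p 0.0205). In the fit of the 6 libraries alone AFP, APOB, FGB and RBP4 were among the 11 genes called lower, and FLT1 and PECR were too.

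**Figure D5:**
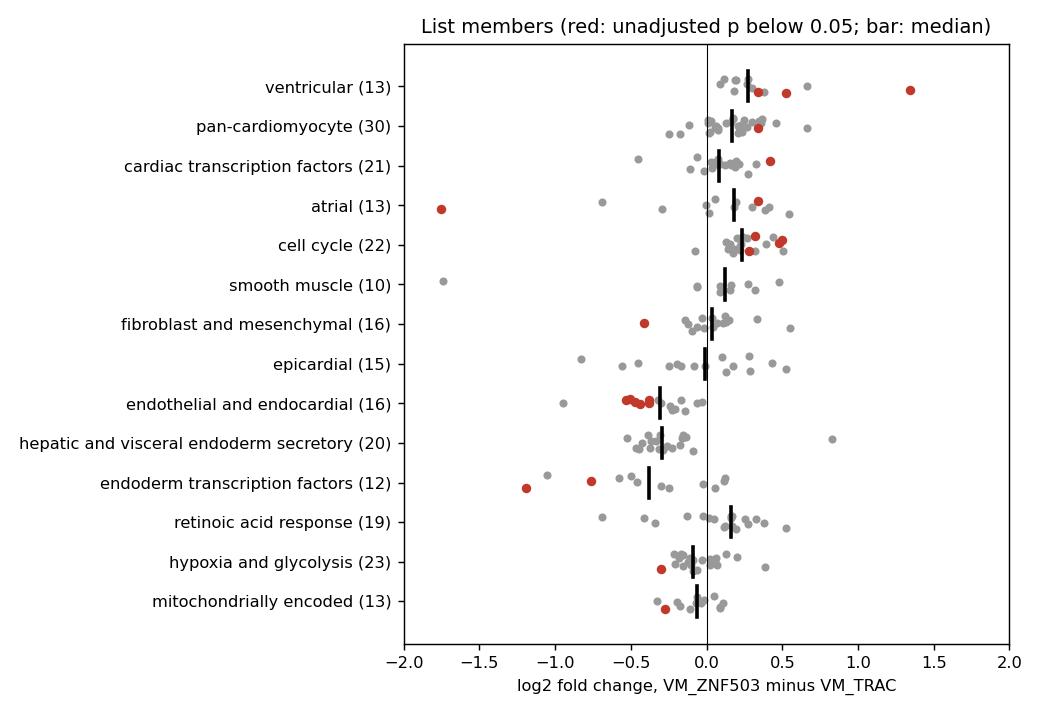
Fitted log2 fold change of VM_ZNF503 against VM_TRAC for the members of 14 gene lists (number tested in brackets), with 1 point per gene, red for an unadjusted p below 0.05 and a black bar for the list median. The endothelial points all lie below 0 and the ventricular points all above it, with medians of -0.31 and 0.28.

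Most cell cycle genes had values above the control. Of 22 tested, 21 had a log2 fold change above 0, 14 were higher in all 3 pairs (12.4% of all genes) and 4 had groups that did not overlap (2.03% of all genes), with a median of 0.23. Those with an unadjusted p below 0.05 were MCM3 and MCM4, of the helicase that opens replication origins, RRM2, of ribonucleotide reductase, and E2F1, a transcription factor of the G1 to S transition. E2F1 had 26.3, 21.2 and 21.3 CPM against 18.5, 14.4 and 15.8 CPM, and a log2 fold change of 0.50 (SE 0.22). MCM3 had a log2 fold change of 0.32 (SE 0.12).

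MKI67, the gene of the proliferation marker Ki-67, had 141, 121 and 141 CPM against 93.8, 86.8 and 118 CPM. Its groups did not overlap, its log2 fold change was 0.44 (SE 0.21), and it was called only when the 6 libraries were fitted alone (adjusted p 0.0276). The summed level of the 22 genes was 915, 906 and 956 CPM in VM_ZNF503 and 682, 751 and 873 CPM in VM_TRAC, with no overlap. In VM_ZNF711 it was 1203, 1349 and 1046 CPM and in VM_LHX2 814, 757 and 1101 CPM, so higher sums were seen without ZNF503 targeting. Of the 22, 19 to 22 lay above 0 whichever library or replicate number was left out, with medians of 0.16 without number 1, 0.32 without number 3 and 0.34 without replicate 3 of VM_TRAC. The count with an unadjusted p below 0.05 fell from 4 to 0 without replicate 1 of VM_ZNF503, of VM_TRAC or of all ventricular groups.

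No gene of the signalling lists was called, and those with low unadjusted p lay on both sides. Of 20 genes of FGF signalling and its MAPK feedback, 4 (20%) had an unadjusted p below 0.05 on the higher side and 1 (5%) on the lower, against 2.21% and 2.28% of all genes. The 4 were DUSP6, the ligand genes FGF18 and FGF10, with log2 fold changes of 0.59 (SE 0.24) and 0.46 (SE 0.18), and the feedback inhibitor gene SPRY1 with 0.50 (SE 0.22). SPRY1 had 34.7, 38.6 and 33.1 CPM against 24.2, 21.7 and 29.8 CPM, with no overlap. The list median was 0.12.

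Of 41 WNT pathway genes, 3 (7.32%) had an unadjusted p below 0.05 on the higher side and 1 (2.44%) on the lower, the latter share being near the 2.28% of all genes. The receptor gene FZD8 had a log2 fold change of 0.40 (SE 0.16), the agonist gene RSPO3 0.34 (SE 0.14) and the ligand gene WNT3 -0.80 (SE 0.37). Of 16 Notch genes 3 did on the higher side (2.21% of all genes), among them HES1, the target and repressor (0.56, SE 0.21), and the ligand gene JAG1 (0.20, SE 0.10), while 10 of the 16 lay below 0. Of 33 BMP and TGF-beta genes 1 (3.03%) did on each side, a share near that of all genes. SMAD1, which transmits the BMP signal, had -0.35 (SE 0.17).

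Of 30 extracellular matrix genes 3 had an unadjusted p below 0.05, all higher (2.21% of all genes), and none was called. COL2A1, the cartilage collagen gene, had 2131, 2271 and 1589 CPM against 1360, 1798 and 1519 CPM and a log2 fold change of 0.35 (SE 0.11). The others were COL11A1 (0.54, SE 0.23) and the hyaluronan synthase gene HAS2 (0.34, SE 0.15). Of 19 retinoic acid response genes none had an unadjusted p below 0.05, with a median of 0.16. Of 23 genes of hypoxia and glycolysis, 8 were lower in all 3 pairs (14.1% of all genes), and P4HA1, a collagen prolyl hydroxylase gene, had -0.30 (SE 0.13). The 13 mitochondrially encoded genes had a median of -0.06.

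The atrial protocol gave a second look at the same targeting, with libraries of its own. ZNF503 was more abundant there, at 103, 111 and 123 CPM in AM_TRAC, and it rose to 255, 367 and 269 CPM in AM_ZNF503, a log2 fold change of 1.39 (SE 0.23, adjusted p 0.0488). The atrial call of ZNF503 was lost when any 1 of these 6 libraries was left out (adjusted p 0.0852 to 0.808). The ventricular value minus the atrial one was -0.03 (SE 0.39, p 0.939), so a difference between the protocols was not detectable at this precision. ZNF703 rose in the atrial libraries by 0.86 on the log2 scale (SE 0.13, adjusted p 0.000706), a call that was lost without the replicate block, against 0.50 in the ventricular ones, and the difference of -0.36 (SE 0.20) had an unadjusted p of 0.0820.

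In the atrial protocol 10 genes (0.0564%) were called, 9 higher (0.0508%) and 1 lower (0.00564%). This count was 3 and 2 without replicates 1 and 2 of AM_ZNF503, and 4 and 1 without replicates 2 and 3 of AM_TRAC. Beside ZNF503 and ZNF703 they included HK2, VEGFA and ATF3, genes of glucose use, vessel growth and the stress response. Their atrial log2 fold changes were 0.48, 0.45 and 0.67, and their ventricular ones -0.16, -0.09 and -0.03. RELN, which encodes the secreted protein reelin, fell in the atrial libraries (-0.69, SE 0.11, adjusted p 0.00224; 0.711 without replicate 3 of AM_TRAC) and had -0.21 (SE 0.11) in the ventricular ones. Without replicate 3 of AM_TRAC the calls of HK2, VEGFA and ATF3 were lost too. KRT5 was at 0 counts in all 6 ventricular libraries.

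No gene's ventricular difference was shown to differ from the atrial one, with 0 calls (0%), a lowest adjusted p of 0.219, and 1041 genes (5.87%) at an unadjusted p below 0.05. DESeq2 gave 0 calls too, while 42 genes were called when only the 12 libraries of these 4 groups were fitted. Without replicate 3 of VM_ZNF503 1 gene was called, and without replicate 2 of AM_TRAC 2 were. HK2 and NDRG1, both known to respond to low oxygen, had that lowest value, and their ventricular minus atrial differences were -0.63 (SE 0.14) and -0.71 (SE 0.15). MYH7 had a ventricular minus atrial difference of 1.74 (SE 0.53, adjusted p 0.720). Its atrial log2 fold change was -1.08 (SE 0.41, adjusted p 0.872) and its ventricular one 0.67. In the fit of these 4 groups alone MYH7, NDRG1 and HK2 were called (adjusted p 2.38e-09, 0.00280 and 0.00672). Endothelial genes had a median of -0.24 in the atrial libraries beside -0.31 in the ventricular ones, and cell cycle genes -0.15 beside 0.23.

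Compared with the mean of VM_LHX2 and VM_ZNF711, the libraries labelled ZNF503 had 195 called genes (1.1%), 144 higher (0.812%) and 51 lower (0.288%). Taken apart, 1954 genes (11%) were called against VM_ZNF711 and 3 (0.0169%) against VM_LHX2, and 0 were called in the same direction in both of these comparisons, which share the VM_ZNF503 libraries. The count of 195 was 15 and 8 without replicates 1 and 2 of VM_ZNF503, 86 and 128 without replicates 1 and 2 of VM_LHX2, 55 without replicate 2 of VM_ZNF711 and 763 without replicate 3 of VM_ZNF711. Among the 195, the 4 genes highest by fold, with a minimum of 50 counts per library on the higher side, included SNORD17, ZNF503 and NTN3, and the 4 lowest were MACIR, CEBPA, PAG1 and ORC2.

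ORC2, of the origin recognition complex, had -0.71 against VM_LHX2 (SE 0.17) and -0.71 against VM_ZNF711 (SE 0.17). SNORD17, a small nucleolar RNA gene, was 1.85 (SE 0.27, adjusted p 0.00188) and CEBPA, a factor of liver and myeloid cells, -0.75 (SE 0.19, adjusted p 0.0367). CEBPA was -1.68 against VM_ZNF711 and 0.18 (SE 0.22) against VM_LHX2, so that its call against the mean rested on VM_ZNF711.

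Heart muscle genes were among those called higher against the mean of VM_LHX2 and VM_ZNF711, and these calls rested on VM_ZNF711. Taken apart, TNNT2 was 1.13 against VM_ZNF711 (adjusted p 1.26e-08) and 0.30 against VM_LHX2 (adjusted p 0.443), IRX4 was 1.71 and 0.32 (adjusted p 0.599 against VM_LHX2), and TPM1 was 0.68 and 0.09 (adjusted p 0.826 against VM_LHX2). None of the genes named from here on was called against VM_LHX2. Of 30 heart muscle genes 4 were called higher (0.812% of all genes), among them TNNT2 (0.71, SE 0.09, adjusted p 2.13e-05), MYL4 and TPM1. Of 21 cardiac transcription factor genes 6 were called higher, among them NKX2-5, TBX5 and GATA4, and of 13 ventricular genes 2, among them IRX4 (1.02, SE 0.14, adjusted p 2.13e-05). TNNT2 and IRX4 had 0.03 and 0.19 against VM_TRAC, neither of them called. The 3 VM_ZNF711 libraries lay with replicate 3 on the first component, and the part of that split in these calls was not tested. Without the replicate block none of these genes was called, and without replicate 1 or 2 of VM_ZNF503 MYL4, TPM1, NKX2-5 and GATA4 were not. The call of TBX5 was lost without replicate 1 of VM_ZNF503. HHEX was called lower (-1.32, SE 0.28, adjusted p 0.0127), and CRB2, NDUFS6 and B3GLCT, named above, were called higher (0.52, 0.58 and 0.78), calls that were each lost without replicate 1 of VM_ZNF503.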

How the data were processed

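Poly-A or ribosome-depleted RNA was sequenced (the labels name both polyA RNA and RiboErase depletion), and the authors deposited raw counts per gene for 24 libraries. STAR and GRCh38 are named per the submitters' processing notes, with no version. The counting program, strandedness and annotation release are not given in the sources used here. Of 62757 genes, 17724 passed filterByExpr and were tested with edgeR 4.0.16 (R 4.3.3), with trimmed mean of M values scaling, robust quasi-likelihood fits over all 24 libraries, 1 mean per group and the replicate number as a block in AM and in VM apart. This left 12 residual degrees of freedom, and the biological coefficient of variation was 14.3%. A gene was called where its Benjamini-Hochberg adjusted p, taken over all genes tested, was below 0.05. The standard error is the log2 fold change divided by the square root of F.

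The pairing comes from the labels' replicate numbers, whose meaning the labels do not give. Each library's departure from its group mean, over 11428 genes of log2 CPM 3 or above, correlated by 0.638, 0.621 and 0.786 between VM_ZNF503 and VM_TRAC libraries of the same number, and by -0.581 to 0.0638 between different numbers. Libraries of 1 group differed by more than sampling noise (chi-square per degree of freedom 7.78 to 44.2). The members and the 36 gene lists were chosen with earlier results of these data known. Genes were named by rule (10 per direction with all 3 pairs in 1 direction and a minimum of 50 counts per library on the higher side, by lowest p where under 5 were called, 4 per direction against the other targeted lines, and list members of 5 CPM or more by lowest p or highest level). MYL2, IRX4, TNNT2, PECAM1, TEK, ESAM, E2F1, RRM2, MKI67, SPRY1, HAS2, WNT3, TLE5, NDRG1, and the examples from the atrial and other-line comparisons were named after their values were seen. Values of some genes that these rules name are not reported here. Scripts were tested on simulated data. Alternatives were no block, a common block, fewer libraries, other scalings and filters, DESeq2 1.42.0 and leaving out libraries. The direct comparisons with VM_LHX2 and VM_ZNF711 and the list counts under other fits were added after seeing the data. Promoter windows are from RefSeq (GRCh38.p14), and 99.99% of counts had a gene symbol.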

Additional observations from a re-analysis of the deposited data

How the results depend on the processing

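Without the replicate block the ventricular comparison had 0 calls and the interaction 0, as with it, while the count against VM_LHX2 and VM_ZNF711 was 0 in place of 195 and the atrial count 0 in place of 10. A common block over both protocols gave 0 and 1 for the last pair. With only the groups compared, the ventricular, interaction and atrial counts were 25, 42 and 119, and with no filter they were 1, 15 and 41, with 418 against the other lines. DESeq2 called 22 genes in the atrial comparison, and the 12 ventricular libraries alone gave 1 call in the ventricular one, MYH7. Leaving out 1 library gave 0 to 1 ventricular, 0 to 2 interaction, 8 to 763 other-line and 1 to 15 atrial calls, and leaving out 1 replicate number gave 0 to 1, 0 to 5 and 1 to 713 of the first 3 (1, 4 and 713 against the other lines without number 1, 2 or 3). The cause of these changes was not tested.

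The log2 fold change of ZNF503 was 1.35 with the 6 libraries alone and 1.35 with no filter, where it was called, and 0.917 to 1.92 with libraries left out (1.05 to 1.78 for single ones). Its ventricular minus atrial difference was 0.015 with no replicate block, 0.033 with a common block, -0.34 to 0.39 without 1 library and -0.47 to 0.52 without 1 replicate number. ZNF503-AS2 ran from -0.34 to 0.67 without 1 library and from -0.46 to 0.72 without 1 number, LHX2 from -0.55 to 0.12 without 1 library and to 0.067 without number 3, and TNNT2 from -0.00081 to 0.095 without 1 library and to -0.0054 without number 1. Other scalings changed no call of the ventricular comparison. Genes of a few counts, such as the antisense genes, are limited by depth.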

Other observations

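Gene groups tied to the known developmental roles of ZNF503 were nearly silent in these heart cultures. Of 8 genes of the eye field and optic fissure only 3 were high enough to be tested, and none had an unadjusted p below 0.05. Of 10 tested neural and neural crest genes none did either, with a median log2 fold change of -0.02. Of 16 tested hindbrain and retinoid patterning genes 14 lay above 0, with a median of 0.17, beside -0.01 for all genes.

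Of 17 immediate early and stress genes, 12 lay below 0 in the ventricular comparison, against 51.4% of all genes. Their median log2 fold change was -0.03, and it ran from -0.23 to 0.03 with libraries left out. Only 1 of them (5.88%), FOSB, had an unadjusted p below 0.05, against 2.28% of all genes on the lower side. FOSB, a subunit of the AP-1 transcription factor, had 11.5, 12.5 and 15.7 CPM in VM_ZNF503 and 17.6, 22.3 and 24.4 CPM in VM_TRAC, with no overlap between the groups, and its log2 fold change was -0.70 (SE 0.29, unadjusted p 0.0208). In the atrial libraries FOSB had 0.82 (SE 0.31), and the ventricular minus atrial difference of -1.53 (SE 0.42) had an adjusted p of 0.569. GDF15, a secreted stress factor gene, had 0.40 (SE 0.15) in the ventricular and 0.67 (SE 0.16) in the atrial comparison, neither of them called.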
